A study of Homo sapiens with 6 samples.

Results

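The Notch receptors NOTCH1, NOTCH2 and NOTCH3, the ligands DLL1, DLL3, JAG1 and JAG2, and the transcription factors HES1, HES6 and HEY1 were followed in NCI-H660 cells that received either the drug pyrvinium pamoate (PP) or PBS. These 10 genes were taken by symbol from the 17177 genes of the deposited table, all 10 were present, and all 10 were among the 11726 genes that were tested. NCI-H660 is an established human cell line derived from neuroendocrine prostate cancer (NEPC), an aggressive form that has lost dependence on the androgen receptor. PP is an anthelmintic dye, and PBS is the saline buffer used as its control. The labels give genotype WT for both groups, day 3 as the collection time, and 3 libraries for each treatment. All 6 libraries came from the same cell line, the dose of PP on these cells was not given in the sources used here, and the labels do not say whether the libraries came from separate cultures. A figure legend of the study calls the samples independent without saying in what way. The p-values measure only the spread between these libraries, which may be partly technical.

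Notch receptors are cell-surface proteins that are activated by ligands on a neighbouring cell. Ligand binding allows an ADAM protease and then gamma-secretase to cut the receptor, and the released intracellular domain joins the DNA-binding protein RBPJ to switch on genes such as the repressors of the HES and HEY families. In neuroendocrine tissue HES1 is known to repress the proneural programme, while proneural factors are known to switch on Delta-type ligands, so that Notch signalling and the neuroendocrine programme are usually found in different cells.

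Expression was given as FPKM (sequenced fragments divided by gene length and by the mapped total of the library), which is a level per length and allows genes to be set side by side. The limma fit took log2(FPKM + 1) and gave PP minus PBS for each gene, which understates the change of low genes, and a gene was called higher or lower when its Benjamini-Hochberg adjusted p over all 11726 genes was under 0.05. Whole counts could be recovered from the FPKM steps, and totals ran from 29064253 to 32481171 per library. Most genes differed between the treatments by this test. Of all genes tested, 38.1% were called higher and 34.4% lower, so that 72.5% were called in one direction or the other, and the groups did not overlap for 75.0%. The stricter limit given in the study's methods (a log2 fold change past 1 or -1 with P under 0.001, read here as unadjusted) was passed by 2.24% of genes upwards and 2.93% downwards. The median log2 fold change was 0.02 and the median size of the difference was 0.27. The cell type was checked against its markers. All 7 neuroendocrine markers tested were expressed, from NCAM1 at 15.4 FPKM to ENO2 at 69.5 FPKM in PBS, and their summed level was 273 to 280 FPKM in PBS and 240 to 251 FPKM in PP. The summed androgen receptor axis markers stood at 0.821 to 1.37 FPKM in PBS and 0.392 to 0.788 FPKM in PP, without KLK2 and KLK3, which were not analysed here. Immune markers summed to 2.75 to 3.09 FPKM in PBS and 2.15 to 2.94 FPKM in PP, with PTPRC and CD3E near 0. Most of this sum came from CD68 (1.41 FPKM in PBS, 1.09 FPKM in PP) and CD14 (1.44 and 1.47 FPKM), which were tested and not called. Endothelial markers summed to 4.30 to 4.76 FPKM in PBS and 2.96 to 3.38 FPKM in PP, with PECAM1 near 0 and CDH5 the tested member (3.60 FPKM in PBS, 2.52 FPKM in PP). Epithelial markers summed to 1326 to 1345 FPKM in PBS and 1247 to 1307 FPKM in PP. Fibroblast markers summed to 4.08 to 4.49 FPKM in PBS and 4.49 to 4.91 FPKM in PP. In bulk libraries, fewer cells of a type and less RNA per cell cannot be told apart.

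Most of the Notch genes stood lower after PP, with JAG1 and HES1 moving the other way. Among the 10 genes, 6 were called lower (NOTCH2, NOTCH3, DLL1, DLL3, JAG2 and HES6), 2 were called higher (JAG1 and HES1), and 2 were not called (NOTCH1 and HEY1). Over all genes tested, 34.4% were called lower and 38.1% higher. The 8 of 10 called, and the 8 of 10 without overlap between groups, were close to the shares of 72.5% and 75.0% over all genes, so the number of changed members alone does not set the pathway apart. The median log2 fold change of the members was -0.35 beside 0.02 over all genes. HES6 was the only member past the stricter limit.

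**Figure D1:**
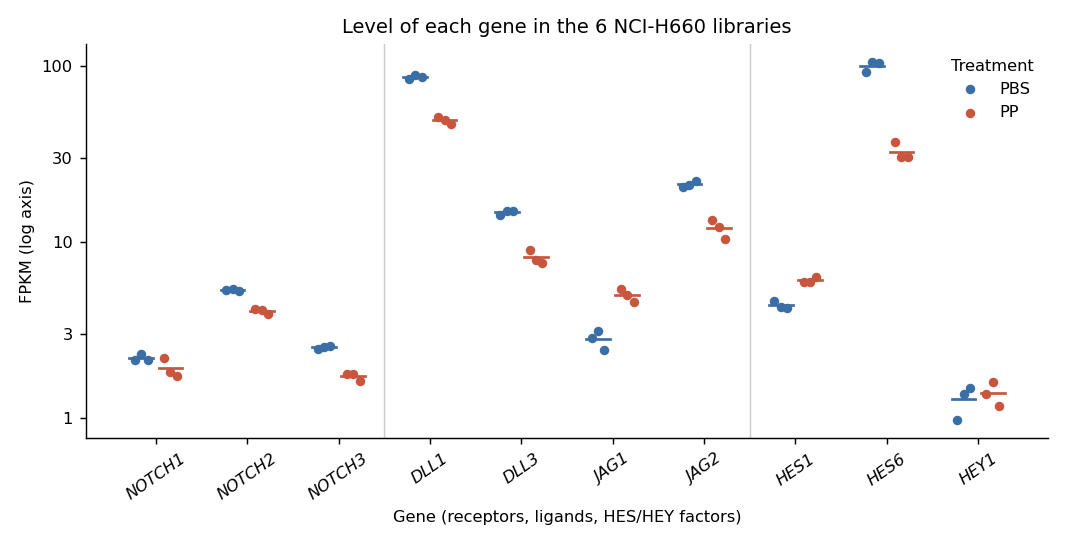
Level of each Notch gene in every library, with FPKM on a log axis, points for the 3 PBS (blue) and 3 PP (red) libraries and a bar at each group mean. HES6 and DLL1 stood at 101 and 86.9 FPKM in PBS and at 32.6 and 49.4 FPKM in PP, JAG1 and HES1 were higher in all 3 PP libraries, and the groups overlapped for NOTCH1 and HEY1.

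The promoters of HES1 and HES6 are shown because these repressors of the same family moved in opposite directions. The 250 bases before the annotated start come from the RefSeq promoter table on GRCh38.p14, which held 7 of the 10 members and had no entry for DLL1, DLL3 and HEY1. Each is written 5' to 3' on the strand of its gene. Capitals mark matches on either strand to the core of the RBPJ site (TGGGAA), to an E-box of the kind that proneural factors bind (CAGCTG) and to the N-box of HES proteins (CACNAG).
HES1 promoter, chr3:194135898-194136147, plus strand: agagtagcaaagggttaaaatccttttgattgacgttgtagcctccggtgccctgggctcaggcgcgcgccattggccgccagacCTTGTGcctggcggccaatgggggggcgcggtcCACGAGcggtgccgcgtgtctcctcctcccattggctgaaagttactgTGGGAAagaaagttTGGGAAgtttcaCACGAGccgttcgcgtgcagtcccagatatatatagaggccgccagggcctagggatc
HES6 promoter, chr2:238240039-238240288, minus strand: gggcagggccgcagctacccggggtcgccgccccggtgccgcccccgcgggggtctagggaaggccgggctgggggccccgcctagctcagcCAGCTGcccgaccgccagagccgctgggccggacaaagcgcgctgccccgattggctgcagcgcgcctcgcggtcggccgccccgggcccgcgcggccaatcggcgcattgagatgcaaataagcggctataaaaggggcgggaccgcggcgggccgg
The HES1 window held 2 matches to the RBPJ core, beginning 84 and 70 bases before the start, and 3 matches to the N-box, 1 of them on the opposite strand. The HES6 window held 1 E-box, beginning 158 bases before the start, and no match to the RBPJ core or the N-box. Of the other promoters matched, NOTCH3 held 1 N-box and NOTCH1, NOTCH2, JAG1 and JAG2 held none of the 3 motifs. No matches overlapped. Over 35116 promoters of the same length, 20.8% held the RBPJ core, 14.0% the E-box and 32.0% the N-box, so each motif is common, and a match describes the letters and not a bound site.

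The receptors were expressed at low levels and NOTCH2 and NOTCH3 fell. NOTCH2 was the most abundant of the 3, at 5.34, 5.43 and 5.27 FPKM in PBS replicates 1, 2 and 3 and at 4.13, 4.08 and 3.88 FPKM in PP replicates 1, 2 and 3. Every PP library lay below every PBS library, and the mean dropped from 5.35 ± 0.0807 to 4.03 ± 0.136 FPKM (SD, n = 3 each), so it fell by 24.6%. The log2 fold change of NOTCH2 was -0.34 (SE 0.05, limma adjusted p = 0.000237). NOTCH2 lies on GRCh37 at chr1:120454176-120643366 on the minus strand and shares sequence with the NOTCH2NL genes. NOTCH2NLA, NOTCH2NLB and NOTCH2NLC were listed at no more than 0.348 FPKM in any library, and how shared reads were divided among them is not stated, so the NOTCH2 level is uncertain to that extent.

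NOTCH3, a receptor best known from smooth muscle and pericytes and also linked to several carcinomas, gave 2.47, 2.53 and 2.56 FPKM in PBS and 1.78, 1.77 and 1.61 FPKM in PP. The groups did not overlap, and the log2 fold change was -0.37 (SE 0.06, limma adjusted p = 0.000389). NOTCH1, the receptor of T-cell development and of many epithelia, gave 2.13, 2.29 and 2.14 FPKM in PBS and 2.18, 1.82 and 1.72 FPKM in PP. PP replicate 1 lay within the PBS range and the other two PP libraries lay below it. The log2 fold change of NOTCH1 was -0.14 (95% interval -0.30 to 0.03, limma adjusted p = 0.131), an interval that included no difference. Without PP replicate 1 it was -0.20 with a limma adjusted p of 0.0341, and with limma-voom on recovered counts it was -0.21 with an adjusted p of 0.0491. The receptors rested on 455 to 1950 counts per library. NOTCH1 lies at chr9:139388885-139440500 and NOTCH3 at chr19:15269849-15311806, both on the minus strand of GRCh37.

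Summed over the 3 receptors, the level was 9.94 to 10.2 FPKM in PBS and 7.21 to 8.10 FPKM in PP. NOTCH2 made up 53.2% ± 0.482 of the sum in PBS and 52.7% ± 1.43 in PP (SD, n = 3), and its shares overlapped. The share of NOTCH1 was 21.8% ± 0.502 in PBS and 24.8% ± 1.82 in PP, and that of NOTCH3 was 25.0% ± 0.541 and 22.5% ± 0.549. Neither of these shares overlapped between groups. With 3 libraries against 3, the smallest p that a two-sided exact permutation test can give is 0.1, which these shares reached (0.118 after Benjamini-Hochberg adjustment over 13 tests of sums and shares), so no share or sum can pass 0.05 in this design.

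The ligands DLL1, JAG2 and DLL3 were far more abundant than the receptors and fell by similar amounts. JAG1, at 2.79 FPKM in PBS, lay within the range of the receptors and rose. DLL1, a Delta ligand that activates Notch on neighbouring cells, was at 84.6, 89.2 and 87.0 FPKM in PBS and at 51.6, 49.6 and 47.0 FPKM in PP. The groups were widely separated, and the mean went from 86.9 ± 2.33 to 49.4 ± 2.32 FPKM (SD, n = 3 each), a level 1.76-fold higher in PBS. The log2 fold change was -0.80 (SE 0.04, limma adjusted p = 6.48e-08). In PBS the DLL1 level lay above that of 94.4% of the genes tested and in PP above 89.0%. DLL1 lies at chr6:170591294-170615653 on the minus strand of GRCh37 and overlaps FAM120B on the opposite strand, and the strand setting of the authors' counting was not stated.

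DLL3 is the divergent Delta ligand that acts mainly inside the cell against Notch and is a surface target in neuroendocrine tumours. Its values were 14.3, 15.1 and 15.1 FPKM in PBS and 9.03, 7.84 and 7.60 FPKM in PP. All PP libraries lay below all PBS libraries, with a mean 1.82-fold higher in PBS, and the log2 fold change was -0.79 (SE 0.06, limma adjusted p = 1.36e-06). JAG2, a Jagged ligand, gave 20.5, 21.1 and 22.3 FPKM in PBS and 13.3, 12.1 and 10.4 FPKM in PP. These groups were also separate, with a mean 1.78-fold higher in PBS and a log2 fold change of -0.79 (SE 0.08, limma adjusted p = 5.44e-06). DLL3 lies at chr19:39989535-39999121 on the plus strand and JAG2 at chr14:105607319-105635161 on the minus strand of GRCh37.

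JAG1, the Jagged ligand known from bile duct and vessel development, was the exception. Its values were 2.84, 3.09 and 2.42 FPKM in PBS and 5.38, 4.98 and 4.52 FPKM in PP, on 450 to 539 and 880 to 981 counts. Every PP library exceeded every PBS library, the mean was 1.78-fold higher in PP, and the log2 fold change was 0.66 (SE 0.08, limma adjusted p = 3.92e-05). The log2 fold change of JAG1 lay above that of 93.8% of all genes tested, of which 38.1% were called higher. JAG1 lies at chr20:10618332-10654647 on the minus strand of GRCh37.

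The mixture of ligands therefore changed mainly in the share of JAG1. The JAG1 mean rose from 2.79 to 4.96 FPKM while the sum of the 4 ligands fell, and both raised its share. Summed over the 4 ligands, the level was 122 to 129 FPKM in PBS and 69.5 to 79.3 FPKM in PP. JAG1 supplied 2.32%, 2.41% and 1.91% of that sum in PBS and 6.78%, 6.68% and 6.5% in PP. DLL1 remained the main ligand in every library, at 69.1% ± 0.432 in PBS and 66.4% ± 1.28 in PP (SD, n = 3). DLL3 supplied 11.8% ± 0.1 and 10.9% ± 0.431, and JAG2 supplied 16.9% ± 0.607 and 16% ± 0.926 with overlapping groups. The ratio of DLL1 to DLL3 was 5.86 ± 0.0836 in PBS and 6.07 ± 0.321 in PP, and overlapped (two-sided exact permutation p = 0.4, adjusted 0.457 over 8 ratios). The ratio of DLL1 to JAG2 was 4.08 ± 0.170 and 4.16 ± 0.323 and overlapped too (exact permutation p = 0.9). By contrast, the ratio of JAG2 to JAG1 was 7.23, 6.82 and 9.22 in PBS and 2.48, 2.43 and 2.31 in PP, without overlap (exact permutation p = 0.1, adjusted 0.133, the smallest this design allows).

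**Figure D2:**
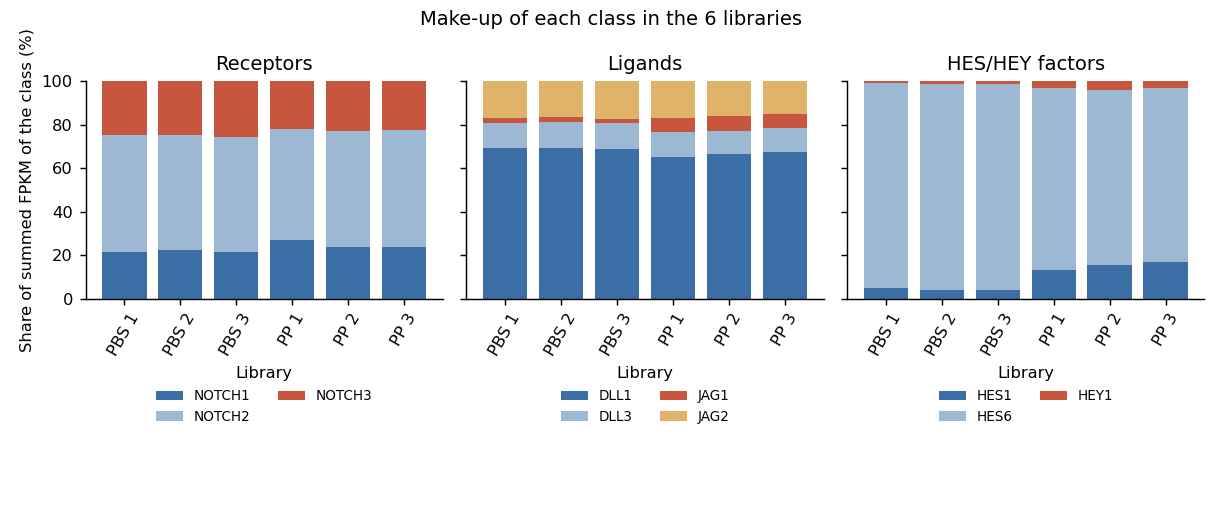
Share of each gene in the summed FPKM of its class (percent) for receptors, ligands and HES/HEY factors in each of the 6 libraries, as stacked bars from 0 to 100. JAG1 went from 2.21% to 6.65% of the ligands and HES1 from 4.10% to 15.2% of the HES/HEY factors between the group means. DLL1 and HES6 had the largest share of their class in every library, counting only the genes drawn. HES4, which stood above HES6 in every PP library, is not among them.

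HES6 showed the largest difference of the 10 members and HES1 moved against it. HES6 is an atypical family member that is induced by proneural factors and counteracts HES1. Its values were 93.1, 106 and 104 FPKM in PBS and 37.2, 30.3 and 30.3 FPKM in PP. The lowest PBS library lay far above the highest PP library, and the mean went from 101 ± 7.11 to 32.6 ± 3.99 FPKM (SD, n = 3 each), a 3.10-fold higher level in PBS. The log2 fold change was -1.61 (SE 0.08, limma adjusted p = 3.97e-08), which ranked 76 from the lowest of 11726 genes. The HES6 level was above that of 95.4% of genes tested in PBS and 81.5% in PP. HES6 lies at chr2:239146908-239149303 on the minus strand of GRCh37, with a non-coding gene on the opposite strand.

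HES1, the classical Notch-induced repressor whose promoter above holds matches to the RBPJ core, gave 4.63, 4.27 and 4.19 FPKM in PBS and 5.93, 5.90 and 6.30 FPKM in PP. All PP libraries were higher than all PBS libraries. The mean rose from 4.36 ± 0.238 to 6.04 ± 0.218 FPKM (SD, n = 3 each), which was 1.39-fold, with a log2 fold change of 0.39 (SE 0.06, limma adjusted p = 0.000125). HES1 rested on 197 to 226 counts in PBS and 281 to 325 in PP, and lies at chr3:193853937-193856521 on the plus strand of GRCh37. HEY1, a related repressor induced by Notch in the vasculature, gave 0.963, 1.37 and 1.47 FPKM in PBS and 1.36, 1.60 and 1.17 FPKM in PP. Its groups overlapped and it was not called (log2 fold change 0.07, 95% interval -0.16 to 0.30, limma adjusted p = 0.557). With 74 to 120 counts per library, HEY1 was the least deeply covered member, and without PBS replicate 1 its log2 fold change was -0.03.

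The make-up of the class of HES6, HES1 and HEY1 changed mainly through HES6, whose mean fell from 101 to 32.6 FPKM. HES4, at 62 FPKM in PBS and 59.9 FPKM in PP, is not in this sum, so the shares describe these genes only. The mean of HES1 rose from 4.36 to 6.04 FPKM, so its share grew mostly because the sum shrank. HES6 supplied 94.3%, 95% and 94.9% of the summed FPKM of HES6, HES1 and HEY1 in PBS and 83.6%, 80.2% and 80.3% in PP. The share of HES1 was 4.69%, 3.81% and 3.80% in PBS and 13.3%, 15.6% and 16.7% in PP. Neither share overlapped between groups (exact permutation p = 0.1 for each, adjusted 0.118). The HES6 to HES1 ratio was 23.3 ± 2.79 in PBS and 5.41 ± 0.766 in PP (SD, n = 3). The share of HEY1 was 1.18% ± 0.185 in PBS and 3.46% ± 0.666 in PP, while its own level overlapped between groups.

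**Figure D3:**
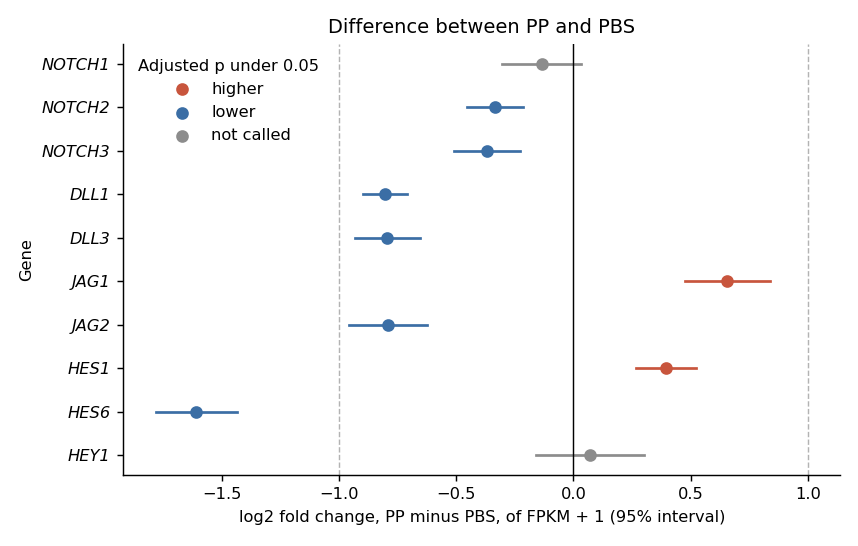
Log2 fold change of each Notch gene (PP minus PBS, FPKM + 1) with its 95% interval from limma, coloured by the call at an adjusted p under 0.05, with dashed lines at -1 and 1. HES6 at -1.61 was the only member beyond a dashed line, and the intervals of NOTCH1 and HEY1 crossed 0.

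The order of the members by level differed between treatments. In PBS it ran HES6, DLL1, JAG2, DLL3, NOTCH2, HES1, JAG1, NOTCH3, NOTCH1 and HEY1, and only JAG1 and NOTCH3 had overlapping ranges between neighbours. In PP it ran DLL1, HES6, JAG2, DLL3, HES1, JAG1, NOTCH2, NOTCH1, NOTCH3 and HEY1, and only NOTCH1 and NOTCH3 overlapped. HES6 thus stood above DLL1 in every PBS library and below it in every PP library, and HES1 and JAG1 both passed NOTCH2.

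The other genes of the pathway were taken from lists written by role. Of 73 such genes 72 were in the table, 57 were tested, 22 were called higher, 26 lower and 9 were not called. The 84.2% called can be read beside the 72.5% of all genes, with 38.1% of all genes higher and 34.4% lower. The counts called in several lists, among them cleavage and co-repressors, shifted under some alternatives. Those past the stricter limit included DNER, LFNG, NEURL1, NEUROG3, ID1 and ID2 downwards and MYC upwards. Each log2 fold change below is PP minus PBS from the same limma fit, and each gene named with one had an adjusted p under 0.05.

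Among the genes that act on the receptor, the largest differences concerned fringe and the proteases. LFNG, the fringe glycosyltransferase that alters which ligands a Notch receptor answers to, was at 67.1, 68.7 and 72.0 FPKM in PBS and at 14.4, 14.6 and 12.4 FPKM in PP. The groups were far apart, with a 5.02-fold higher mean in PBS and a log2 fold change of -2.25 (SE 0.06, limma adjusted p = 5.50e-10), rank 16 from the lowest. The other glycosylation genes called included RFNG, another fringe (0.41), and POGLUT1, which adds glucose to Notch (0.39), and of the 4 tested 2 were higher and 2 lower. In the cleavage list 1 of 9 was higher, 5 were lower and 3 were not called. ADAM17 rose from 13.1 to 23.6 FPKM (0.80) and ADAM10, the main ligand-dependent Notch protease, fell from 15.1 to 10.1 FPKM (-0.55). The ratio of ADAM10 to ADAM17 was 1.15 ± 0.0372 in PBS and 0.426 ± 0.0221 in PP, without overlap (SD, n = 3, exact permutation p = 0.1, adjusted 0.133). APH1A, a gamma-secretase subunit, fell from 72.7 to 53.4 FPKM (-0.44).

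Among the remaining receptors and ligands, 1 of 2 tested was higher and 1 lower. DNER, a non-canonical Notch ligand of neurons, fell from 9.45 to 2.47 FPKM (-1.59), and DLK2, a ligand-like protein without the Notch-activating DSL domain, rose from 2.27 to 4.01 FPKM (0.62). DLL4, below the filter, went from 0.783 to 1.17 FPKM (0.28 in a fit that included genes with a mean of at least 0.1 FPKM) but lost its call without PBS replicate 2 (limma adjusted p = 0.104). In the trafficking list 6 of 12 were higher, 2 lower and 4 not called. The number higher was 5 without PBS replicate 1, and 4 without PBS replicate 3 or without PP replicate 2. NEURL1, a ubiquitin ligase that acts on Notch ligands, fell from 5.30 to 1.25 FPKM (-1.48). ITCH, a ubiquitin ligase for Notch, rose from 13.5 to 20.1 FPKM (0.54), and AAK1, a kinase of the endocytic machinery, rose from 2.19 to 3.54 FPKM (0.51).

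Among the nuclear partners of Notch with a mean FPKM of at least 1, none on the activation and co-repressor lists passed the stricter limit. RBPJ itself gave 30.9 ± 1.08 FPKM in PBS and 28.6 ± 0.657 in PP (SD, n = 3), a log2 fold change of -0.10 (SE 0.04, limma adjusted p = 0.0394). In its activation list 4 of 7 were higher and 3 lower. CREBBP, a histone acetyltransferase, rose from 20.4 to 28.9 FPKM (0.49), and the Mastermind co-activator MAML3 fell from 2.59 to 1.91 FPKM (-0.30). With all 7 still tested, the number lower was 2 without the eBayes trend and with the replicate block. It was also 2 with PBS replicate 1, PBS replicate 3, PP replicate 1 or PP replicate 2 left out singly. MAML3 kept its call in every alternative that gave it a value. RBPJ lay nearest the threshold of the genes called lower in this list, so its call is uncertain. MAML2, below the filter, fell from 0.622 to 0.292 FPKM (-0.33 in the fit with the lower filter). Its mean was 2.13-fold higher in PBS, and the log2 value is small because of the pseudocount of 1. In the co-repressor list 3 of 11 were higher, 7 lower and 1 not called. HDAC1, a histone deacetylase, fell from 83.4 to 57.2 FPKM (-0.54), and TLE3, a Groucho partner of HES proteins, fell from 29.7 to 20.3 FPKM (-0.53).

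Other HES and HEY genes and other targets did not move in a single direction. HEY2, a relative of HEY1, rose from 1.28 to 2.63 FPKM (0.67, and up to 1.05 over the alternatives), and HES2, below the filter, fell from 1.19 to 0.312 FPKM (-0.74 in the fit with the lower filter). Of the 3 other targets tested, NRARP, a feedback inhibitor of Notch, rose from 3.59 to 4.86 FPKM (0.35), CDKN1A, a cell cycle inhibitor, fell from 55.0 to 48.3 FPKM (-0.18), and MYC rose from 6.39 to 49.2 FPKM (2.77). MYC is also controlled by many other pathways.

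In the list of proneural and neuroendocrine factors, 2 of 7 genes tested were higher and 5 lower. Of these 7, 4 were ID1, ID2, ID3 and ID4, so the counts do not describe proneural factors alone. The median of -1.32 was the value of NEUROG3, which had 3 to 13 counts in PP. ID2 fell from 333 to 73.1 FPKM (-2.17) and ID1 from 262 to 85.7 FPKM (-1.60). The ID proteins are inhibitors of basic helix-loop-helix factors and are not proneural factors themselves. The neuroendocrine marker list, which shares INSM1 with this one, had 1 of 7 higher, 4 lower and 2 not called. The log2 fold changes of the 4 lower markers were -0.78 for CHGA (43.3 to 24.8 FPKM), -0.32 for CHGB, -0.23 for SYP and -0.15 for ENO2. INSM1 was the marker called higher (16.5 to 19.3 FPKM, 0.21). The markers not called were NCAM1, at 15.4 FPKM in both groups, and SCG3, at 65.9 FPKM in PBS and 70.3 FPKM in PP. The part of a change in neuroendocrine state in the values of the Notch genes was not tested.

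**Figure D4:**
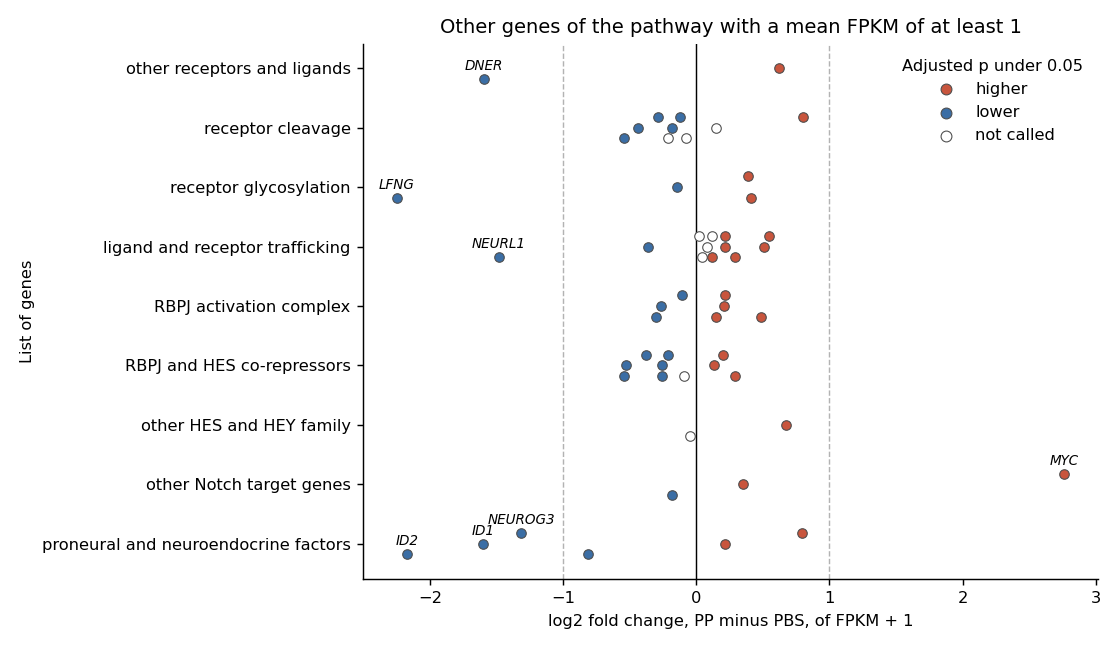
Log2 fold change (PP minus PBS, FPKM + 1) of the other pathway genes that were tested and are reported here, 1 point per gene and 1 line per list, filled by the call at an adjusted p under 0.05, with dashed lines at -1 and 1. MYC lay beyond 1, LFNG at -2.25, ID2 at -2.17 and 4 other genes lay beyond -1, and the nuclear co-activators and co-repressors stayed between the dashed lines.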

How the data were processed

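Messenger RNA of 6 NCI-H660 libraries (3 PBS, 3 PP, day 3) was sequenced as paired-end reads from a stranded kit. The authors deposited FPKM values for 17177 gene symbols. The paper's methods name hg19, Bowtie, RSEM, Cufflinks and HTSeq, whereas the submitters' processing notes name fastp, HISAT2, HTSeq and GRCh38, and which route gave the deposited FPKM is not stated. The methods describe duplicates, and the labels 3 libraries per group, and all of the latter entered the fit. The FPKM of a gene depends on the gene length and the strand setting chosen, so levels of overlapping or duplicated genes can shift.

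The members, gene lists and tests were chosen with earlier results of these data known. FPKM values of every gene were whole multiples of a step within 0.01 of a count, which gave the recovered counts, and 268 genes were at 0 throughout. The 11726 genes whose mean FPKM reached 1 were fitted on log2(FPKM + 1) with limma 3.58.1 in R 4.3.3, using lmFit and an intensity trend in eBayes. Benjamini-Hochberg adjustment was over all of them. For named genes below the filter, a fit over genes with a mean of at least 0.1 was used. Shares and ratios within a library were compared with two-sided exact permutation tests (scipy 1.17.1). All 10 members are named. In each pathway list up to 3 genes with the largest log2 fold change among those with an adjusted p under 0.05 are named. Some genes that the rule names are not reported here, although the counts over their lists include them. NEUROG3, HES4, HES5 and the neuroendocrine markers other than ENO2 and NCAM1 were named after their values were seen. Positions come from GENCODE on GRCh37 and promoters from RefSeq on GRCh38.p14, and the builds were not mixed. The protein sequences were not used here. Alternatives varied the pseudocount, filter, scaling, eBayes trend, libraries, a replicate block and limma-voom on recovered counts. The limma fit was tested on simulated counts in which few genes were changed, a setting that does not cover data where most genes differ. Tables and figures were made in Python 3.11.15 (matplotlib 3.10.9, pandas 2.3.3, numpy 2.4.6).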

Additional observations from a re-analysis of the deposited data

How the results depend on the processing

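The calls of NOTCH2, NOTCH3, DLL1, DLL3, JAG1, JAG2, HES1 and HES6 kept their direction and their side of the threshold under every alternative that gave them a value. HES6 ranged from -1.70 to -1.56 over these alternatives and JAG1 from 0.59 to 0.84. NOTCH1 was not called in the reported fit. With single libraries left out it ranged from -0.2018 to -0.0881, and it was called without PP replicate 1 (-0.20, limma adjusted p = 0.0341) and with limma-voom (-0.21, adjusted p = 0.0491). HEY1 ranged from -0.0305 to 0.1354 with single libraries left out and turned negative without PBS replicate 1. With a mean FPKM of at least 5, NOTCH1, NOTCH2, NOTCH3, JAG1 and HEY1 gave no value. Over all genes, the number past the stricter limit went from 344 to 531 downwards with a pseudocount of 0.1, and to 397 upwards (from 263) and 559 downwards with limma-voom. A smaller pseudocount shrinks low genes less, and the cause under limma-voom was not tested. With single libraries left out, 4161 to 4261 genes were called higher and 3724 to 3958 lower, and 257 to 265 and 339 to 361 passed the stricter limit. The share of NOTCH2 among receptors, -0.537 percentage points in PP minus PBS, ran from -1.1 to 0.268 with single libraries left out and was positive without PP replicate 1. The JAG2 share of the ligands overlapped between groups in FPKM but not in recovered counts (24.7% in PBS, 22.8% in PP).

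Replicate numbers did not pair the samples: deviations of same-numbered libraries correlated at -0.211, -0.014 and -0.127, and not every library correlated best with its own number. A fit that took this number as a replicate block called 4260 genes higher and 3878 lower, and no member changed its call. Depth limits HEY1 most, at 74 to 120 counts, and FPKM alone does not show how reads shared with copies were divided.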

Other observations

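Some pathway genes outside the naming rule were looked at after their values were seen. HES4, the other abundant HES gene here, gave 60.4, 60.4 and 65.3 FPKM in PBS and 64.1, 61.0 and 54.7 FPKM in PP, with overlapping groups (log2 fold change -0.05, limma adjusted p = 0.451). Its level in PP was therefore above that of HES6, whereas in PBS HES6 was higher. HES5, a Notch target in neural progenitors, was listed at 0 in all 6 libraries. NEUROG3, a proneural factor of endocrine pancreas, was at 1.78, 2.35 and 2.14 FPKM in PBS and 0.207, 0.105 and 0.421 FPKM in PP, on 52 to 65 and 3 to 13 counts, with a log2 fold change of -1.32 (SE 0.11, limma adjusted p = 1.83e-06). The inhibitors of the ID family did not all move together. ID4 rose from 50.4 to 88.0 FPKM (log2 fold change 0.79, limma adjusted p = 5.57e-08) while ID1, ID2 and ID3 fell, ID3 by 0.82 on the log2 scale.

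Among the 8 called members, PP replicate 1 was the PP library nearest the PBS mean for 6 (NOTCH2, NOTCH3, DLL1, DLL3, JAG2 and HES6). Over the 8267 genes that were called and did not overlap, it was the nearest for 39.9%. This comparison was made after the values were seen.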
